A study of Sus scrofa with 20 samples.

Results

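Genes of the proteasome were examined in the longissimus dorsi muscle of 20 adult pigs, with 1 array per animal. The members are the genes whose symbol in the probe annotation is that of a proteasome alpha or beta subunit (PSMA, PSMB), a cap ATPase (PSMC), another cap subunit (PSMD), an activator or inhibitor (PSME, PSMF) or an assembly chaperone (PSMG), together with the cap subunit ADRM1, and the inducible subunits PSMB8 and PSMB9 were left out. The rule took 75 probe sets, of which 74 were porcine and were tested, and they carried the names of 43 genes among the 13609 named genes and 45922 porcine probe sets of the array. The other probe set is one for a mouse microRNA that carries the name PSMB5. The rule reads gene names alone and no measured value. Each gene was represented by its probe set with the highest mean over the 20 arrays, and 20 of the 43 genes had more than 1. PSMA1, PSMB10, PSMC3 and PSMD13 were not analysed here, since no probe set had 1 of these symbols alone.

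The 10 PiNN animals are Pietrain pigs homozygous negative for malignant hyperthermia syndrome, and they were compared with 10 animals of the Duroc breed, which differs from Pietrain in metabolic type. All were adults, and no treatment is named. The labels place the sampling 24 h before slaughter, whereas the methods describe muscle collected after slaughter for the bisulfite libraries, and which of these holds for the arrays was not resolved. By the sample IDs of the study, 4 Duroc and 3 PiNN animals also had a library for reduced representation bisulfite sequencing (RRBS), which reads DNA methylation. The study describes its library animals as a subset of the array animals, but the number of another Duroc library matched no array label, so an animal taken here as without a library may have had one. Sex is listed by the study for the library animals, with females and castrated males in both breeds but no animal numbers, so it could not be assigned to arrays. Litter and array date were not found in the sources used here.

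The proteasome degrades proteins that carry chains of ubiquitin, and in muscle it takes part in the turnover of contractile proteins and in atrophy. Its core is a barrel of alpha and beta rings, with the proteolytic sites on PSMB5, PSMB6 and PSMB7 inside the beta rings. The cap recognises the ubiquitin chain, removes it and unfolds the substrate with a ring of ATPases, and separate chaperones assemble core and cap without staying in the finished particle. Transcription of the subunit genes is known to be raised together by the factor NFE2L1 when proteasome activity falls short.

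Signals are given on the log2 scale, so a difference of 1 is a 2-fold change, and differences are Duroc minus PiNN. The medians of the 20 arrays lay between 4.61 and 4.73, and any pair of arrays correlated at 0.953 to 0.986. The 69 background probe sets averaged 3.93, and this array background ran from 3.78 to 4.21, the highest being that of PiNN 49. Of the 9 skeletal muscle fibre markers measured, all were above background, with ACTA1 at 13.92 and CKM at 13.47. Of the 5 leukocyte markers measured, PTPRC (4.43), CD163 (5.47) and CD79B (5.40) were above it and CD3E (3.69) and LYZ (2.11) below. Since the samples are whole muscle, fewer cells of a type and less RNA per cell cannot be told apart.

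None of the 43 proteasome genes passed the test between breeds at an adjusted p under 0.05 (limma, Benjamini-Hochberg over all 45922 porcine probe sets), and neither did any of their 74 probe sets. Of all named genes 6.39% passed, and of all porcine probe sets 4.17%. At an unadjusted p under 0.05 there were 10 of the 43 genes, 23.3%, close to the 22.2% of all named genes. The ANOVA that the methods name, here adjusted by Benjamini-Hochberg and not by the study's q-values, called 1, ADRM1, lower in Duroc. It called 1.3% of all porcine probe sets on that side. The breed means were lower in Duroc for 28 members and higher for 15, and 65.1% on the lower side compared with 56.7% of all named genes. The median difference was -0.10 over the members and -0.026 over all named genes. The signals of the breeds overlapped for every member, and they did not overlap at 0.122% of all porcine probe sets. By role, as in the plot of differences by gene, the median was -0.36 over the 4 beta subunits without a proteolytic site, -0.24 over the 4 scaffold and ubiquitin receptor subunits of the cap base, -0.12 over the 5 ATPases, -0.10 over the 7 alpha subunits, 0.031 over the 7 lid subunits and 0.030 over the 7 chaperones.

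**Figure D1:**
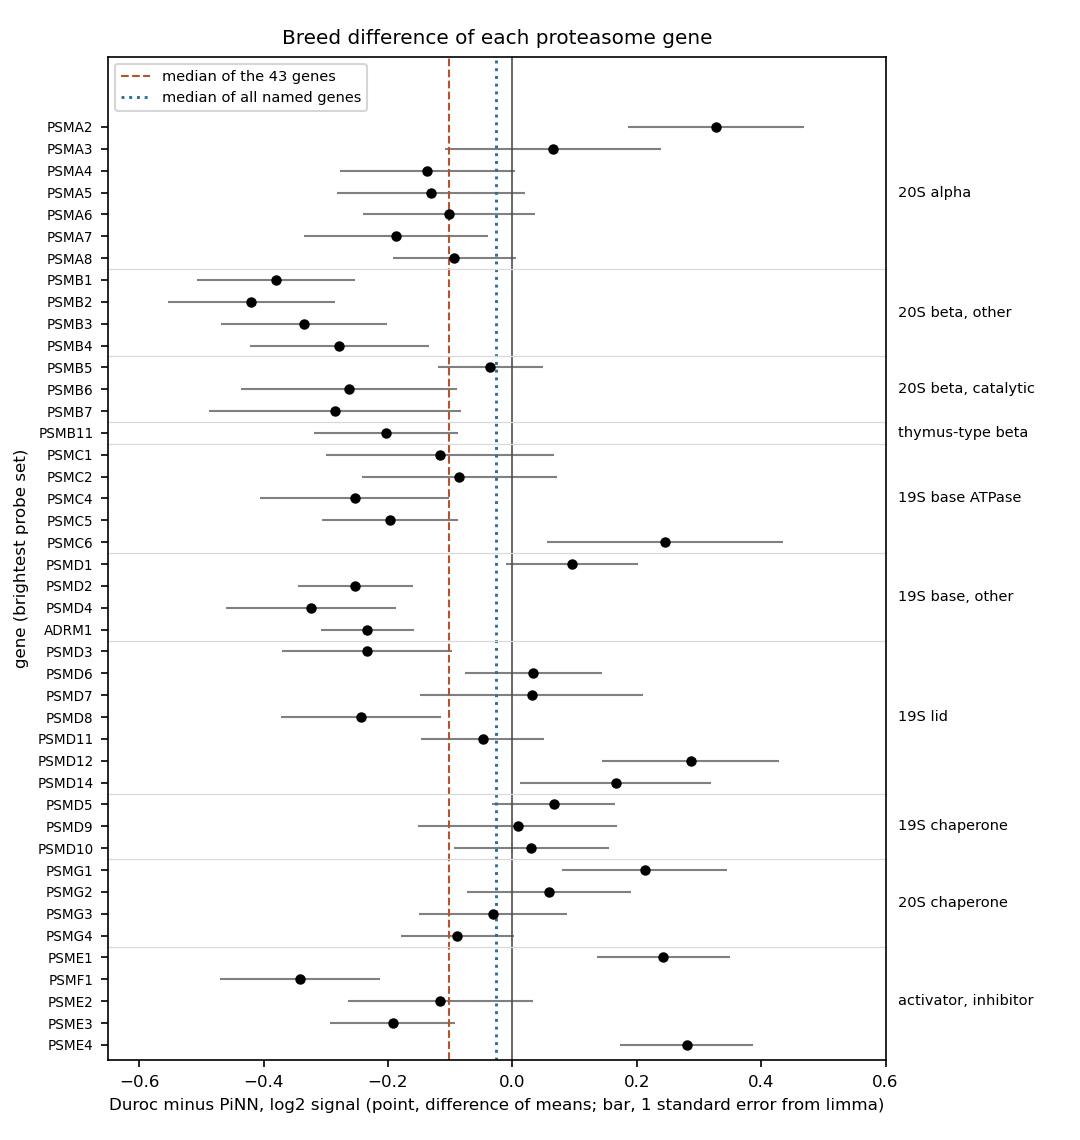
Difference between breeds (Duroc minus PiNN, log2 signal) for the brightest probe set of each of the 43 genes, grouped by role, with bars of 1 standard error from limma, and lines at the median of the 43 genes (dashed, -0.10) and of all named genes (dotted, -0.026). PSMB2 lies farthest to the left at -0.42 and PSMA2 farthest to the right at 0.33, and no gene passed an adjusted p under 0.05.

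By their brightest probe sets, the beta subunits without a proteolytic site had lower mean signals in Duroc, although none passed. PSMB2 ranged from 7.84 to 8.61 in Duroc (median 8.24) and from 8.06 to 9.21 in PiNN (median 8.57). PiNN 19, 20, 21, 36 and 41 lay above every Duroc animal, and 8 of the 10 Duroc animals were below the PiNN median. The difference was -0.42 (standard error 0.13, adjusted p = 0.0793), or 1.34-fold higher in PiNN. PSMB1 ranged from 9.60 to 10.21 in Duroc (median 9.89) and from 9.61 to 10.82 in PiNN (median 10.24), with all 10 Duroc animals below the PiNN median, and differed by -0.38 (standard error 0.13, adjusted p = 0.0954). PSMB3 differed by -0.34 (standard error 0.13, adjusted p = 0.174) and PSMB4 by -0.28 (standard error 0.14, adjusted p = 0.334).

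Among the proteolytic subunits, PSMB6 (caspase-like site) ranged from 8.01 to 9.18 in Duroc (median 8.46) and from 8.12 to 9.42 in PiNN (median 8.87). Its difference of -0.26 (standard error 0.17, adjusted p = 0.484) was smaller than the SD between animals, at 0.42 in each breed. PSMB7 (trypsin-like site) ranged from 7.41 to 8.64 in Duroc (median 7.94) and from 7.23 to 9.07 in PiNN (median 8.14) and differed by -0.28 (standard error 0.20, adjusted p = 0.526). Both genes spread over more than 2-fold between animals of the same breed. PSMB5 (chymotrypsin-like site) had 1 porcine probe set, whose mean of 3.40 was below the array background, so its difference of -0.035 gives no level for this subunit. PSMB11, the subunit known from thymus, had signals of 5.37 ± 0.22 in Duroc and 5.57 ± 0.30 in PiNN (mean ± SD, n = 10) and differed by -0.20 (standard error 0.12, adjusted p = 0.397).

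The alpha ring forms the gate of the barrel. Its members were on both sides. PSMA2 ranged from 4.72 to 6.12 in Duroc (median 5.37) and from 4.59 to 5.39 in PiNN (median 5.01). It had the largest difference on the Duroc side among the brightest probe sets of the 43 genes, 0.33 (standard error 0.14, adjusted p = 0.218), with 3 of 10 Duroc animals below the PiNN median. Duroc 28 had the highest of its signals. PSMA7, PSMA4, PSMA5 and PSMA6 differed by -0.19, -0.14, -0.13 and -0.10, and PSMA3 by 0.065. PSMA8, known from testis, averaged 2.05, below the array background and the dimmest of the members, and differed by -0.094.

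In the cap, ADRM1, a receptor for ubiquitin chains, ranged from 7.25 to 7.59 in Duroc (median 7.51) and from 7.52 to 7.99 in PiNN (median 7.66). Every Duroc signal was under the median of PiNN, and only the upper end of Duroc and the lower end of PiNN overlapped. The difference was -0.23 (standard error 0.074, adjusted p = 0.0786), larger than the SD between animals, at 0.10 in Duroc and 0.16 in PiNN. This gene passed under the ANOVA and with array weights (adjusted p = 0.0420 and 0.0381), and its adjusted p over all alternatives ran from 0.0381 to 0.655. PSMD2, a scaffold of the base, ranged from 9.05 to 9.58 in Duroc (median 9.32) and from 9.05 to 9.76 in PiNN (median 9.58) and differed by -0.25 (standard error 0.092, adjusted p = 0.133). PSMD4, another ubiquitin receptor, differed by -0.32 (standard error 0.14, adjusted p = 0.205) with 9 of 10 Duroc animals below the PiNN median, and PSMD1, the second scaffold, by 0.096. The ATPases PSMC4, PSMC5, PSMC1 and PSMC2 differed by -0.25, -0.20, -0.12 and -0.085, whereas PSMC6 differed by 0.25 (adjusted p = 0.572).

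The lid, which holds the deubiquitinase PSMD14, had 3 members lower in Duroc by their means and 4 higher. PSMD12 ranged from 6.94 to 8.10 in Duroc (median 7.75) and from 6.93 to 7.77 in PiNN (median 7.43) and differed by 0.29 (standard error 0.14, adjusted p = 0.304). PSMD14 differed by 0.17 and its partner PSMD7 by 0.031. PSMD8 and PSMD3 differed by -0.24 and -0.23, PSMD6 by 0.033, and PSMD11, whose probe set had the highest signal of the members at 11.21, by -0.047.

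Of the chaperones, those of the cap differed by 0.0084 (PSMD9), 0.030 (PSMD10) and 0.066 (PSMD5). Those of the core differed by 0.21 (PSMG1), 0.059 (PSMG2), -0.031 (PSMG3) and -0.088 (PSMG4). Among the brightest probe sets of the 7 the smallest adjusted p was 0.452 (limma), for PSMG1. The dimmer probe set of PSMD10 (mean signal 5.16, above background) differed by 0.37 (standard error 0.13, adjusted p = 0.124). The factors that bind the ends of the core lay on both sides. PSME4, a nuclear activator also called PA200, ranged from 9.55 to 9.92 in Duroc (median 9.75) and from 8.74 to 9.88 in PiNN (median 9.51). Every Duroc signal was over the median of PiNN, and PiNN 36 was the lowest of the 20. The difference was 0.28 (standard error 0.11, adjusted p = 0.152). PSMF1, a proteasome inhibitor also called PI31, ranged from 8.23 to 8.81 in Duroc (median 8.46) and from 8.08 to 9.32 in PiNN (median 8.96), with all 10 Duroc animals below the PiNN median, and differed by -0.34 (standard error 0.13, adjusted p = 0.146). PSME1 and PSME2 encode the 2 chains of the PA28 activator, and their brightest probe sets differed by 0.24 (standard error 0.11, adjusted p = 0.229) and -0.12 (standard error 0.15, adjusted p = 0.772). PSME3, the chain of the nuclear form, differed by -0.19 (standard error 0.10, adjusted p = 0.334).

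The count of members that passed depended on PiNN 49 and on how the array was handled. Without PiNN 49, 4 genes passed, PSMB1, PSMB2, PSMD2 and PSMF1, all lower in Duroc, where 2% of all porcine probe sets were called lower in Duroc. With the array background as a covariate 7 passed (PSMB1, PSMB2, PSMB4, PSMB7, PSMC5, PSMD2 and PSMF1), all lower in Duroc, with 2.44% of all porcine probe sets called on that side. PSMB2 then differed by -0.57 with an adjusted p of 0.00266. With array weights 5 passed (PSMB1, PSMB2, PSMD2, ADRM1 and PSMF1) and after quantile normalization 4 (PSMB1, PSMB2, PSMD2 and PSMF1), all lower in Duroc, beside 2.49% and 1.77% of all porcine probe sets on that side. No alternative called a member higher in Duroc.

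For most members the breed difference had opposite signs in animals with and without an RRBS library, although no member passed the test of this. The fit of the animals with a library was chosen after seeing the data. Over the 6 Duroc and 7 PiNN animals without one, 38 of 43 members were lower in Duroc by their means (median -0.29), and 4 passed (PSMB1, PSMB2, PSMB3 and PSMD2), against 0.856% of all porcine probe sets on that side. Over the 4 Duroc and 3 PiNN animals with one, 38 of 43 were instead higher in Duroc (median 0.30), and none passed (limma, with 14 at an unadjusted p under 0.05), where 0.847% of all porcine probe sets passed and 14.1% were at an unadjusted p under 0.05. The calls over all porcine probe sets shifted too, with 32.8% of them higher in Duroc without a library and 92.03% with one. The sides of all named genes in these subsets were not counted. PSMB6 differed by -0.67 without and 0.51 with a library, PSMB7 by -0.69 and 0.47, and PSMD9 by -0.36 and 0.64. ADRM1 (-0.27 and -0.16) and PSME4 (0.29 and 0.22) kept their side. The animals with a library included PiNN 49, whose mean over the 43 genes was the lowest of all 20 (7.23). They also included Duroc 38, 42 and 43, the highest of their breed (7.82 to 7.88). PiNN 19, 20 and 21, the highest of all (7.99 to 8.02), had no library. These animals enter the difference of every member, so the 38 members are not 38 independent results.

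**Figure D2:**
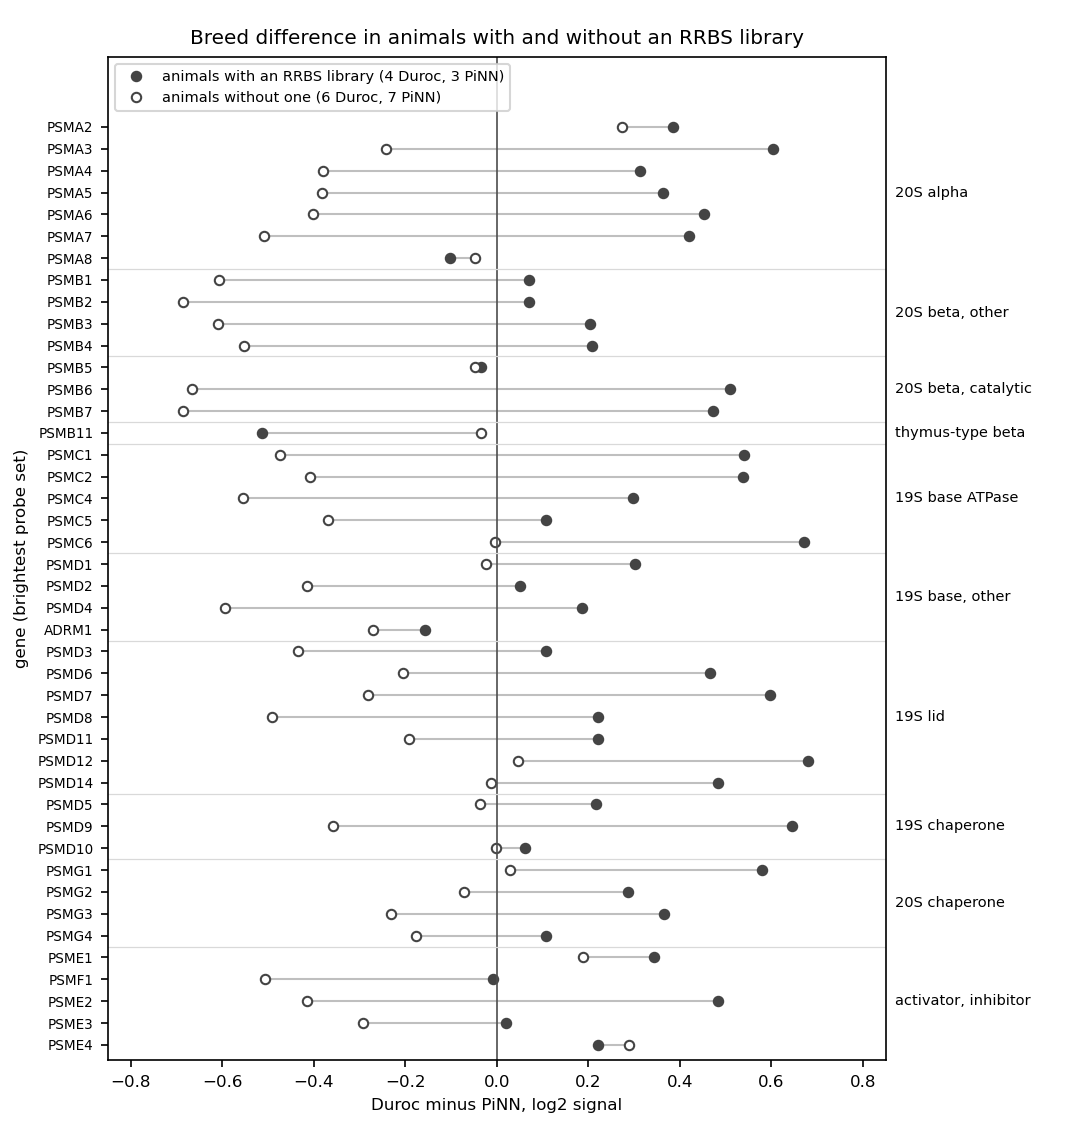
Difference between breeds (Duroc minus PiNN, log2 signal) of each of the 43 genes in the animals with an RRBS library (filled) and without one (open), joined by a line. The open points of most genes lie left of 0 and the filled ones right of it, as for PSMB6 (-0.67 and 0.51), whereas ADRM1, PSME4, PSMB5 and PSMA8 are among those with both points on the same side.

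Tested directly, as a term in the limma fit of all 20 animals, the difference between the breed differences passed for 0 of the 43 members and for 1 of all named genes (0.00735%). This term was not among the tests listed in the design. At an unadjusted p under 0.05 there were 24 members, 55.8%, and 14.9% of all named genes, and the term was positive in 40 of the 43 members and in 51.6% of all named genes. It was 1.18 for PSMB6 (standard error 0.29, adjusted p = 0.131), the smallest adjusted p of the members. The array background differed along with it. It ran from 3.79 to 3.83 in the 4 Duroc and from 3.94 to 4.21 in the 3 PiNN animals with a library, and from 3.78 to 4.10 and from 3.83 to 4.09 in those without. The part of the array background in this difference was not tested.

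Inside each breed, most proteasome genes went up and down together from animal to animal. The mean over the 43 genes ran from 7.36 (Duroc 24) to 7.88 (Duroc 43) in Duroc, a 1.43-fold range, and from 7.23 (PiNN 49) to 8.02 (PiNN 20) in PiNN, a 1.72-fold range. Duroc 24, 31 and 32 were low at 7.36, 7.37 and 7.41, and Duroc 38, 42 and 43 high at 7.82, 7.88 and 7.88. In PiNN the animals 19, 20 and 21 were high, between 7.99 and 8.02. The breed means of 7.62 ± 0.20 in Duroc and 7.70 ± 0.25 in PiNN (SD, n = 10 each) differed by less than either spread.

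**Figure D3:**
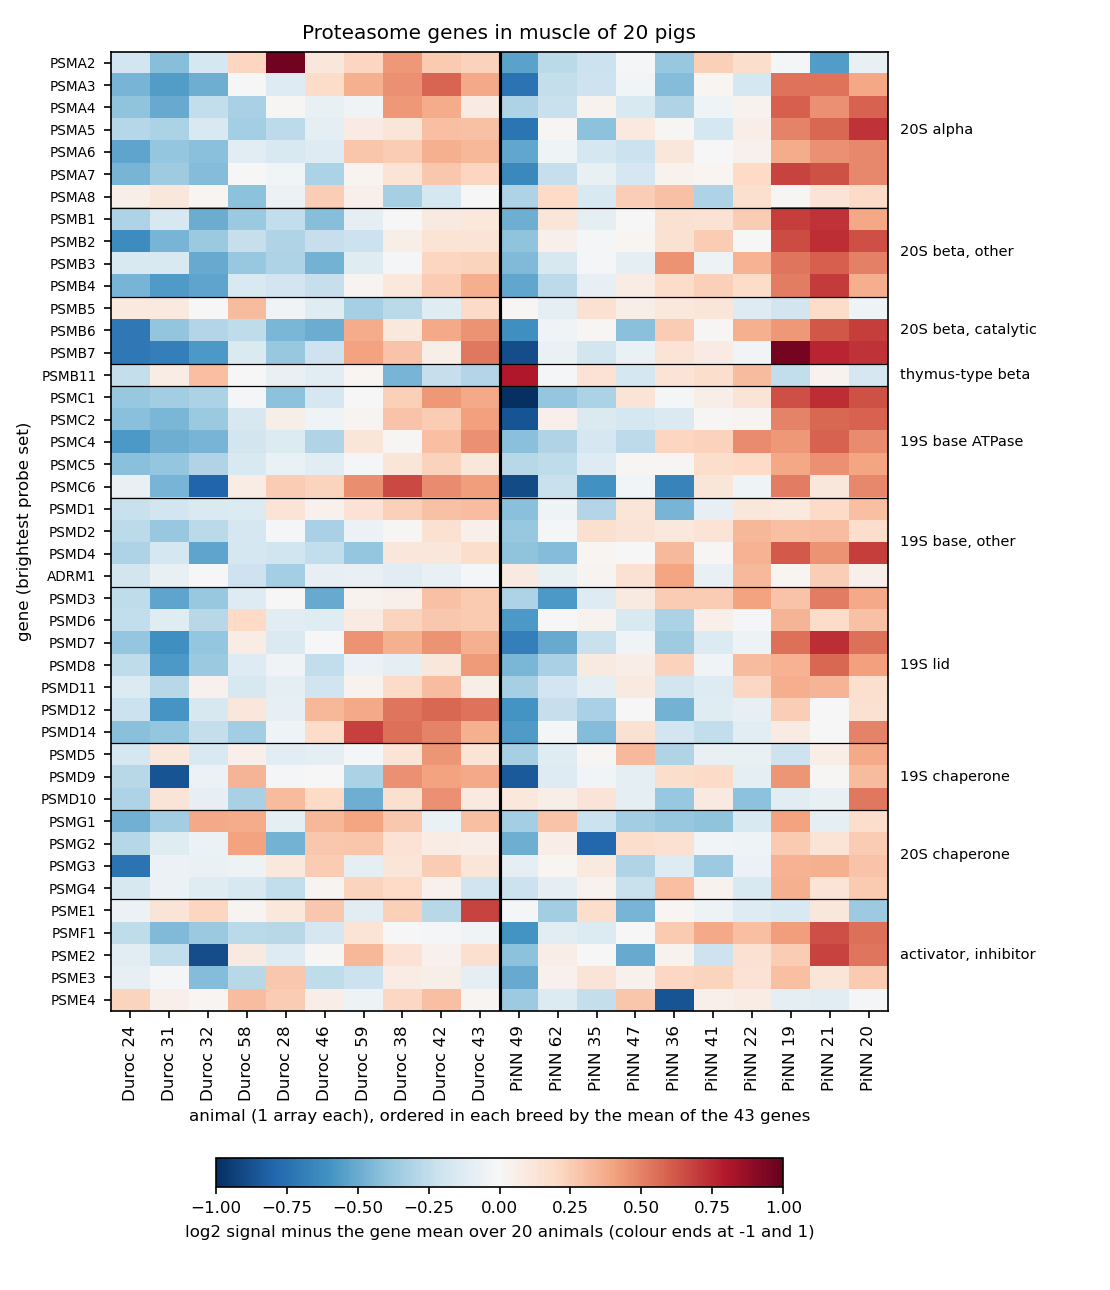
Log2 signal of each of the 43 genes (rows, grouped by role) in each of the 20 animals (columns, ordered in each breed by the mean of the 43 genes), minus the mean of the gene over all animals. Columns such as Duroc 24, 31 and 32 and PiNN 49 are blue in most rows and PiNN 19, 20 and 21 red, while PSMB11 runs the other way in PiNN 49.

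The median Pearson correlation over the 903 pairs of members was 0.53 in Duroc and 0.61 in PiNN (n = 10 animals each). Over all pairs of named genes it was 0.00 in both, and over pairs of the 2985 named genes with mean signals between 6.74 and 8.80, the quartiles of the members, it was 0.13 and 0.17. Correlations were above 0.8 in 20.3% of the member pairs in Duroc and 26.9% in PiNN, and in 1.07% and 1.09% of all pairs of named genes. Genes of cytosolic ribosomal proteins had medians of 0.64 and 0.69, those of mitochondrial ribosomal proteins 0.57 and 0.47, and ubiquitin E2 enzymes 0.23 and 0.17. These correlations share the same 10 arrays and their normalization, and are given as descriptions.

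The mean of the members correlated with the array background at r = -0.88 in Duroc and -0.80 in PiNN (rho -0.89 and -0.56), and without the 2 animals farthest in background (Duroc 24 and 31, PiNN 36 and 49) at -0.77 and -0.65. With the spread of all signals on an array it correlated at 0.95 and 0.94. After the array background was removed within each breed, the median over member pairs was 0.29 in Duroc and 0.40 in PiNN, against 0.078 and 0.070 for the named genes of like signal. After the spread of the array was removed it was 0.15 and 0.18, and after the first principal component of all porcine probe sets 0.21 and 0.39. The share of the movement that comes from the arrays and the share that comes from the muscle cannot be told apart here.

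**Figure D4:**
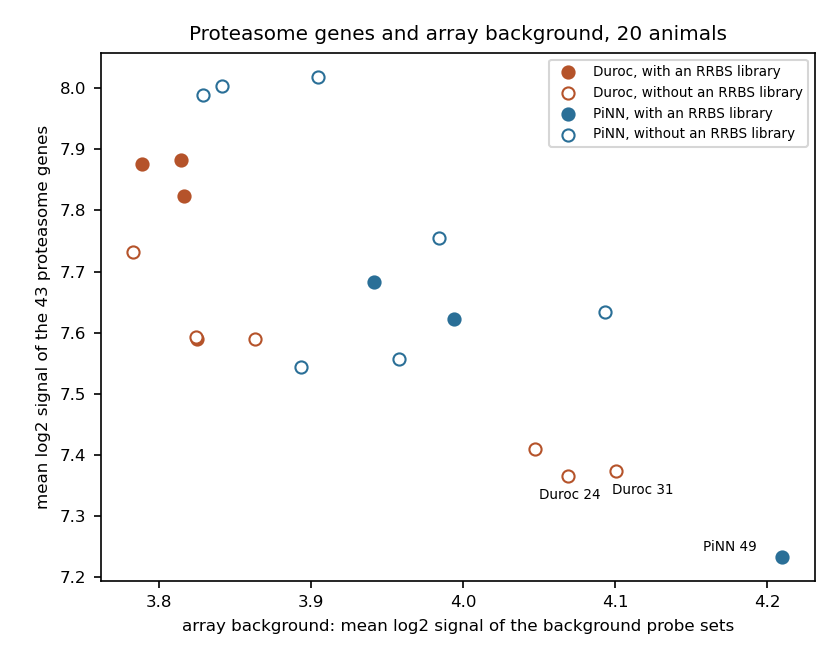
Mean log2 signal of the 43 proteasome genes against the array background (mean log2 signal of the 69 background probe sets) in each of the 20 animals, coloured by breed and filled where the animal has an RRBS library. PiNN 19, 20 and 21 have the highest means (7.99 to 8.02) at backgrounds of 3.83 to 3.90, and PiNN 49 the lowest mean (7.23) at the highest background (4.21).

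Each member was also set against the mean of the other 42. The correlation was above 0.8 in both breeds for 20 of the 43 genes, and for 10 of the 43 (PSMB1 and PSMB3 newly among them) after the array background was removed. PSMA6 (alpha ring) reached 0.98 in Duroc and 0.96 in PiNN, PSMC2 (ATPase) 0.97 in Duroc and 0.96 in PiNN and PSMC5 (ATPase) 0.98 in Duroc and 0.94 in PiNN, the 3 highest by their mean over the breeds. With the background removed these were 0.92 and 0.90, 0.88 and 0.94 and 0.91 and 0.94. The core and the cap moved in step, with r = 0.99 in Duroc and 0.97 in PiNN between the means of their subunits, and 0.97 and 0.94 with the background removed. On the mean of the others PSMB7 had slopes of 2.12 in Duroc and 2.17 in PiNN, PSMC1 of 1.47 and 2.22, PSMA3 of 2.09 and 1.60, and PSMD2 of 0.78 and 0.69.

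Several members did not follow the rest. PSMB11 correlated at -0.63 in Duroc and -0.73 in PiNN with the mean of the others, and at -0.54 and -0.27 with the background removed. In PiNN its rho was -0.38, and PiNN 49 held the highest of its signals. PSMB5 (-0.37 in Duroc and -0.18 in PiNN) and PSMA8 (-0.42 in Duroc and 0.41 in PiNN) were below the array background. ADRM1 (0.17 in Duroc and 0.095 in PiNN), PSMD10 (0.29 in Duroc and 0.051 in PiNN), PSME4 (0.081 in Duroc and 0.27 in PiNN) and PSME1 (0.11 in Duroc and -0.13 in PiNN) were above it and still showed little relation to the others. The dimmer probe set of PSME1 did not follow its brighter one, so the values of PSME1 hold for the brighter one alone. For ADRM1 the values were 0.50 and 0.63 with the array background removed. Among the chaperones of the core the correlations with the other members ran from 0.38 (PSMG4) to 0.60 (PSMG3) in Duroc and from 0.50 (PSMG1) to 0.67 (PSMG4) in PiNN. With the background removed they were -0.25 and -0.085 for PSMG1, -0.22 and 0.52 for PSMG2, 0.14 and 0.33 for PSMG3 and 0.11 and 0.58 for PSMG4.

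By role, the median pairwise correlation among the 5 ATPases was 0.86 in Duroc and 0.85 in PiNN, among the beta subunits without a proteolytic site 0.76 and 0.90, among the 7 lid subunits 0.77 and 0.76, and among the 7 alpha subunits 0.63 in both. It was 0.44 and 0.42 among the chaperones of the core, 0.39 and 0.30 among those of the cap, and 0.022 and 0.16 among the activators and the inhibitor. With the array background removed the beta subunits without a proteolytic site were at 0.83 in both breeds and the ATPases at 0.67 and 0.80, whereas the alpha subunits were at 0.23 and 0.55, the lid at 0.55 and 0.52, the chaperones of the core at 0.17 and 0.22, those of the cap at 0.23 and 0.0020, and the activators and the inhibitor at -0.067 and 0.074. The highest single pairs were PSMD2 with PSMD3 in Duroc (0.98, and 0.96 with the background removed) and PSMB2 with PSMB7 in PiNN (0.98 and 0.93).

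**Figure D5:**
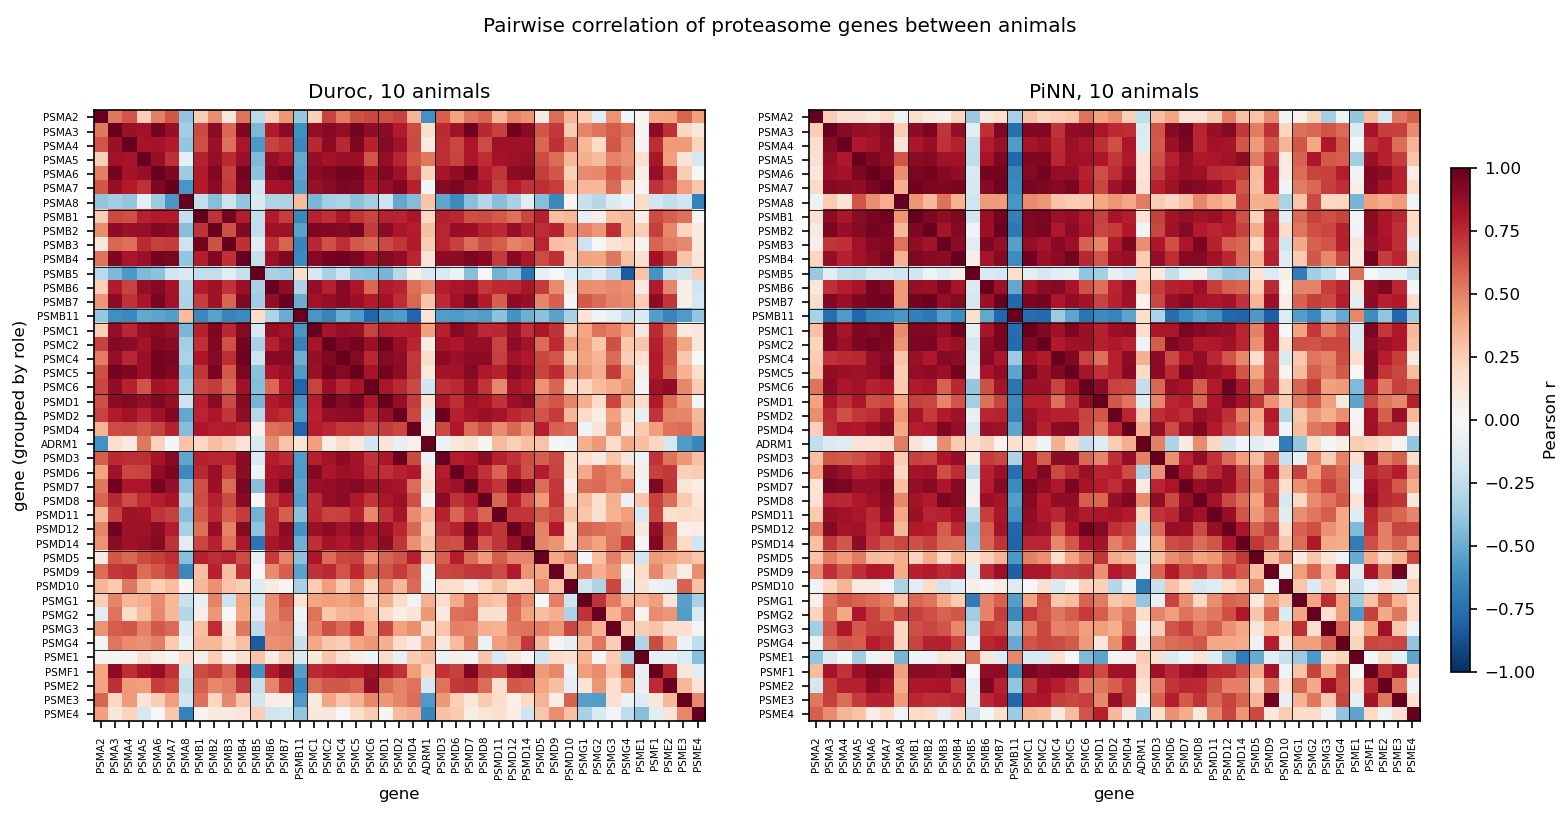
Pearson correlation between animals for every pair of the 43 genes, in 10 Duroc and in 10 PiNN animals, with genes grouped by role. Red blocks cover the alpha, beta, ATPase and lid subunits in both breeds (medians within a role from 0.63 to 0.90, leaving out the proteolytic subunits), and the pale or blue rows are PSMA8, PSMB5, PSMB11, ADRM1, PSMD10, PSME1 and PSME4.

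Subunits that touch or act as a pair were tested against each other over the 10 animals of each breed. Of 11 such pairs 9 had both genes measured, which gave 18 tests, adjusted together. They include PSMB5 with PSMB6, where the PSMB5 signal is below the array background, so that its 2 tests say nothing of this pair. By Pearson's r 8 passed at an adjusted p under 0.05, and by Spearman's rho 6. The tests are against a correlation of 0, while any pair of members had a median of 0.53 in Duroc and 0.61 in PiNN, with upper quartiles of 0.77 and 0.81, so a pass does not set partners apart from other members. The neighbouring ATPases PSMC4 and PSMC5 gave r = 0.92 (permutation p = 0.000220, adjusted 0.00225) and rho = 0.93 (permutation p = 0.000260, adjusted 0.00234) in Duroc, and r = 0.93 (permutation p = 0.000250, adjusted 0.00225) and rho = 0.95 (permutation p = 7e-05, adjusted 0.00126) in PiNN. For the proteolytic subunits PSMB6 and PSMB7 these were r = 0.89 (permutation p = 0.00163, adjusted 0.00522) and rho = 0.85 (permutation p = 0.00278, adjusted 0.0125) in Duroc, and r = 0.86 (permutation p = 0.00123, adjusted 0.00522) and rho = 0.83 (permutation p = 0.00507, adjusted 0.0183) in PiNN. Without the 2 animals farthest from the median of the first gene, r was 0.93 and 0.86 for the first pair, and 0.88 and 0.72 for the other. With the array background removed it was 0.75 in Duroc and 0.90 in PiNN for the first pair and 0.82 in Duroc and 0.74 in PiNN for the other.

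The deubiquitinase PSMD14 and its partner PSMD7 gave r = 0.89 (permutation p = 0.00174, adjusted 0.00522) and rho = 0.90 (permutation p = 0.000850, adjusted 0.00510) in Duroc. In PiNN they gave r = 0.68 (permutation p = 0.0288, adjusted 0.0576) and rho = 0.76 (permutation p = 0.0147, adjusted 0.0441), so that the pair passed by rho alone, and r with the array background removed was 0.68 in Duroc and 0.43 in PiNN. PSMC1 and PSMC2 passed by r in both breeds (0.83 and 0.93) and by rho in neither (0.68 and 0.65), and with the background removed r was 0.61 in Duroc and 0.84 in PiNN. For PSMG1 with PSMG2 that value was 0.58 in Duroc and 0.13 in PiNN. The chaperones PSMG1 and PSMG2, which act as a dimer, gave r = 0.72 (permutation p = 0.0185, adjusted 0.0416) and rho = 0.72 (permutation p = 0.0239, adjusted 0.0615) in Duroc, where r without the 2 farthest animals was 0.69, and r = 0.40 (permutation p = 0.251, adjusted 0.411) and rho = 0.36 (permutation p = 0.317, adjusted 0.519) in PiNN. With 8 animals left, 3 tests passed, those of PSMC4 with PSMC5 in both breeds and of PSMB6 with PSMB7 in Duroc. The chains PSME1 and PSME2 of the PA28 activator gave r = -0.072 (permutation p = 0.813, adjusted 0.813) and rho = -0.042 (permutation p = 0.918, adjusted 0.919) in Duroc, and r = 0.18 (permutation p = 0.623, adjusted 0.789) and rho = 0.042 (permutation p = 0.919, adjusted 0.919) in PiNN. They used the brighter probe set of PSME1, which its dimmer one did not follow (r = -0.035 in Duroc and -0.32 in PiNN). The tests of PSME1 with PSME2 therefore say nothing of the pair beyond that probe set. PSMD1 with ADRM1 and PSMG3 with PSMG4 passed in neither breed.

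Where a gene had several probe sets above background, they mostly kept the same side between breeds, but not all moved together over animals. The dimmest of PSMG1 (5.39) correlated with the brightest at -0.71 in Duroc and -0.15 in PiNN. Its others were at 0.58 and 0.83 in Duroc and 0.17 and 0.48 in PiNN. For PSMB1 the dimmest (4.81) was at -0.13 and -0.23, and the other at 0.79 and 0.80. For ADRM1 the dimmest (5.22) was at 0.75 and -0.064, and the other at 0.36 and 0.70. For PSMB2, 1 of the 4 probe sets (mean signal 8.09) differed by 0.11 and ran against the brightest over animals, at r = -0.66 in Duroc and -0.75 in PiNN, whereas another (7.15) differed by -0.41 with an adjusted p of 0.0592, the smallest of all 74, and correlated with the brightest at 0.78 and 0.52. For PSME1 the dimmer probe set (6.86) differed by -0.17 and the brighter by 0.24, with r of -0.035 and -0.32 between them, so no direction is given for this gene. PSMC4 had 3 probe sets above background that differed by -0.25, -0.38 and -0.77, and the 2 brightest correlated at 0.99 and 0.93.

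Outside the members, the genes whose signal followed the mean of the members most closely over the 20 animals, with each breed centred, were ATP6V1E1 (r = 0.97, a subunit of the vacuolar proton pump), GABARAPL2 (0.97, an autophagy protein), ETFDH (0.97, electron transfer from fatty acid oxidation), ARF1 (0.96, vesicle transport), SOD1 (0.96, superoxide dismutase), COPS4 (0.96, a subunit of the COP9 signalosome), UBE2A (0.96, a ubiquitin-conjugating enzyme), RNF7 (0.96, a subunit of cullin ubiquitin ligases), NDUFB4 (0.96) and NDUFS4 (0.96), both of respiratory complex I. None of these 10 passed between breeds (limma, smallest adjusted p = 0.368, for GABARAPL2). Of the 11293 other named genes above background, 692, or 6.13%, had r above 0.8 with the mean of the members, and the median was 0.058.

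Among 16 measured regulators and partners of the proteasome, 1 was called lower and 1 higher in Duroc, against 6.39% of all named genes called. NFE2L1, the factor known to drive subunit genes, averaged 9.33 ± 0.22 in Duroc and 9.71 ± 0.26 in PiNN (SD, n = 10) and differed by -0.39 (standard error 0.11, adjusted p = 0.0430). It correlated with the mean of the members at 0.84, and at 0.57 with the array background removed. The call was lost in 15 of the 20 fits with 1 animal left out (adjusted p up to 0.0840), and over the animals with an RRBS library the difference was 0.030. NFE2L2, a related factor of the oxidative stress response, differed by 0.42 (standard error 0.096, adjusted p = 0.0142) and correlated at 0.52, or 0.031 with the background removed. VCP, the ATPase that extracts ubiquitinated proteins for the proteasome, correlated at 0.93 and differed by -0.20 (adjusted p = 0.285).

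None of the 7 measured ubiquitin genes and E1 enzymes passed (limma, with 4 at an unadjusted p under 0.05, beside 22.2% of all named genes). Of these 4, UBA1 and UBA7 were lower in Duroc and UBA2 and UBA6 higher. RPS27A, which encodes ubiquitin fused to a ribosomal protein, correlated with the mean of the members at 0.91, UBB at 0.70 and the E1 enzyme UBA1 at 0.68. Of the 10 measured genes of muscle atrophy ligases and FOXO factors, UBR1, a ligase of the N-degron pathway, was called higher in Duroc, at 0.41 (standard error 0.094, adjusted p = 0.0161). The share called over all named genes was 6.39%. The atrophy ligase TRIM63 correlated with the members at 0.50 in Duroc and -0.14 in PiNN, and FBXO32 at -0.22 and -0.10. With the background removed they were at -0.30 and -0.48 over both breeds, whereas the chaperone-linked ligase STUB1 was at 0.88, or 0.78 with the background removed. The inducible subunits PSMB8 and PSMB9 differed by -0.28 and -0.058, neither of which passed, and correlated with the members at 0.68 and 0.14. None of the 8 genes of that list passed (limma, 2 at an unadjusted p under 0.05, beside 22.2% of all named genes).

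Cell type markers moved with the members in places. The mean of the 9 muscle fibre markers ran from 12.51 to 12.77 in Duroc and from 12.48 to 12.83 in PiNN and correlated with the mean of the members at 0.68 and 0.64, while the single markers over both breeds had a median of 0.32 and ran from -0.14 (MYH2) to 0.84 (DES), with ACTA1 at 0.048. MYH1 had opposite signs, 0.77 in Duroc and -0.65 in PiNN. With the array background removed, over both breeds, DES was at 0.54, MYH2 at 0.40, ACTA1 at 0.34 and MYH1 at -0.41. Of the 3 red blood cell markers ALAS2 (mean signal 4.16, near the background of 3.93) was called lower in Duroc (-0.51, adjusted p = 0.0327), against 6.39% of all named genes called. HBB differed by -1.16 (adjusted p = 0.0527) and SLC4A1 by -0.011 (adjusted p = 0.974). The mean of the 3 ran from 4.58 to 5.63 in Duroc and from 5.21 to 6.19 in PiNN and correlated with the members at -0.14 and -0.28. The call of ALAS2 was lost in 8 of the 20 fits with 1 animal left out. No leukocyte, adipocyte, endothelial, fibroblast or nerve marker was called (5, 5, 5, 5 and 2 measured, with 4 of all these at an unadjusted p under 0.05 in limma). Over all named genes 22.2% were at such a p. The nerve marker S100B correlated with the members at 0.84, but the other nerve marker, PMP22, at 0.060 (-0.48 in Duroc and 0.48 in PiNN). The mean of the endothelial markers did so at 0.40 in Duroc and 0.73 in PiNN. Singly and over both breeds, CDH5 was at 0.66 and KDR at 0.57, but PECAM1 at 0.051, VWF at 0.057 and TIE1 at -0.16. With the array background removed the order changed, with VWF at 0.56, CDH5 at 0.37, KDR at 0.31, PECAM1 at 0.11 and TIE1 at 0.024. The adipocyte marker FABP4 was at 0.79, while the other adipocyte markers lay between -0.21 and 0.065. The part of these cells in the movement of the members was not tested.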

How the data were processed

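The muscle of 10 Duroc and 10 PiNN pigs had been hybridized to Affymetrix Porcine Snowball arrays. The deposited values are log2 probe set signals that the authors summarized and normalized before deposit. The submitters' processing notes name GCOS 1.1.1, and for summarization and normalization the method was not given in the sources used here. Probe sets were named from the platform annotation, and 1923 control, background and other-species probe sets were left out of the test. Breeds were compared with limma 3.58.1 in R 4.3.3 (breed as the only term, two-sided, Benjamini-Hochberg over 45922 probe sets, threshold 0.05). The fit was also run on simulated data with independent noise in each probe set. Such data hold no array effect shared between probe sets, so that run does not cover one. The ANOVA of the methods, with Benjamini-Hochberg in place of the study's q-values, and other alternatives were run as well. Partner pairs were tested with 100000 permutations. Replicates are separate animals, and their number limits the precision.

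Named with values were members past the threshold, the 3 largest differences on each side, the proteolytic subunits, the brightest and dimmest members, the 3 highest and 3 lowest within-breed correlations, and members whose probe sets disagreed by over 0.2, and ADRM1 and others for completeness. The rule for the members, although it reads names alone, and the lists were chosen with earlier results of these data known.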

Additional observations from a re-analysis of the deposited data

Results flagged for a closer look

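Among 88 groups of 10 animals (43 genes and their mean, in each breed), 7 had an extreme animal whose gap to the next exceeded Dixon's critical share of the range. This is 7.95% of the groups. In a single group chance gives about 1 in 20, but these groups share the same 20 arrays, so no excess is read from the count. The share over all named genes was not counted. PiNN 49 was the lowest PiNN animal in 4 of them. Its signal was 7.86 for PSMC2, with the next animal at 8.55, 9.05 for PSMD2 (next 9.42), 5.57 for PSMD9 (next 6.28) and 7.77 for PSME3 (next 8.32). The background of this array, 4.21, exceeded that of every other array. The other 3 were in Duroc. Duroc 42 was highest for PSMD5 at 7.37, with the next at 7.07. Duroc 24 was lowest for PSMG3 at 5.002 (next 5.64), and Duroc 32 was lowest for PSME2 at 4.78 (next 5.42).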

How the results depend on the processing

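All 1917 porcine probe sets called with all animals became 3135 with array weights, 1277 with the mean over the probe sets of a gene (fewer features were tested, and 3.82% were called against 4.17%), 389 among only animals with an RRBS library (an alternative chosen after seeing the data) and 585 among only those without, and leaving out 1 animal gave 1174 to 2489. For the proteasome genes the count of 0 became 1 under the ANOVA, 7 with the array background as a covariate, 5 with array weights, 4 with quantile normalization and 4 without the animals with RRBS libraries. It was 0 in the other settings, and leaving out 1 animal gave 0 to 4, with 4 only without PiNN 49. The median difference of -0.10 was 0.30 among animals with an RRBS library and ran from -0.17 to -0.057 with 1 animal left out. Of all calls 66.1% were higher in Duroc, against 48.5% with the background covariate, 53.9% without PiNN 49 and 32.8% among animals without an RRBS library, and with 92.03% among those with one. In animals with an RRBS library the sign turned for 23 of the 43 members, among them PSMA6 (0.45), PSMB1 (0.071), PSMB2 (0.070), PSMB6 (0.51), PSMB7 (0.47), PSMC2 (0.54), PSMC5 (0.11), PSMD11 (0.22), and for the factor NFE2L1 (0.030).

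The median pairwise correlation of 0.53 in Duroc was 0.32 after quantile normalization, 0.29 with the array background removed and 0.42 over probe set means, and, in alternatives chosen after seeing the data, 0.15 with the array spread and 0.21 with the first principal component removed. The 0.61 in PiNN was 0.40 after quantile normalization and with the array background removed, 0.18 with the array spread and 0.39 with the first principal component removed. With 1 animal left out these ran from 0.49 to 0.57 and from 0.49 to 0.67. Of the 8 partner tests that passed by Pearson's r, 3 passes were left without the 2 farthest animals. Among pairs that did not pass, r turned without these animals for PSMG3 with PSMG4 in Duroc (-0.045), PSMD1 with ADRM1 in PiNN (0.45, and 0.055 by rho and 0.18 with the background removed) and PSMB5 with PSMB6 in PiNN (0.16). The causes were not tested. No paired analysis was possible because the breeds share no animal numbers.

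Signals at or below the array background (PSMB5 and PSMA8) give no level. The method of normalization is unknown, and the member values move with array background and spread, which limits every correlation here. Members with 1 probe set (23 of 43) could not be checked with another.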

Other observations

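Against the proteasome genes ran 18 of the 11293 other named genes above background, or 0.159%, with r under -0.8 to the mean of the members over the 20 animals with each breed centred. The lowest was LOC100158117 at -0.90, and at -0.69 with the array background removed. NFAT5, a transcription factor of the response to osmotic stress, came next at -0.88 and then at -0.79. ANP32A, a nuclear phosphoprotein, correlated at -0.85 and then at -0.72, and LRRC32 at -0.85 and then at -0.57. ZC3H18, a zinc finger protein of RNA processing, followed at -0.84 and then at -0.60. None of these named genes passed between breeds, with differences in this order of -0.033, -0.075, -0.016, -0.077 and -0.012 (limma, smallest adjusted p = 0.762, for LRRC32).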
